A study of Homo sapiens with 8 samples.

Results

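A set of 10 genes of endoplasmic reticulum (ER) associated degradation and of the XBP1 branch of the unfolded protein response were followed in MCF-10A cells given an Hsp70 inhibitor. They were taken from the deposited count table by symbol: HERPUD1, XBP1, ERN1, SEL1L, SYVN1, EDEM1, EDEM2, DERL1, DERL3 and SELENOS, 10 of 60617 genes. All 10 were found, and 9 were among the 17693 genes with enough counts to be tested; DERL3 was not. MCF-10A is an established non-tumorigenic human breast epithelial line. The cells, labelled Empty or NeuT, either went untreated or were given JG-98, a small-molecule inhibitor of Hsp70 chaperones, at 1 µM for 12 h, with 2 libraries in each of the 4 groups. All groups grew in the same medium with horse serum, epidermal growth factor, hydrocortisone, insulin and cholera toxin. The labels do not say what the Empty and NeuT cells carry, whether either line is 1 clone, or whether replicates are separate cultures, so p-values measure the spread between these libraries, which may be technical. The series set out to compare the sensitivity of transformed cells to the drug.

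ER-associated degradation, or ERAD, removes misfolded proteins from the ER. Mannosidase-like proteins mark glycoproteins for disposal, an ER-membrane ubiquitin ligase complex built on SEL1L and SYVN1 moves them out with the derlins, and the p97 ATPase pulls them to the proteasome. The pathway is coupled to the unfolded protein response: the sensor IRE1α, encoded by ERN1, splices the XBP1 mRNA in the cytoplasm, and the transcription factor made from the spliced form raises many ERAD genes. A parallel sensor, ATF6, acts on ER chaperone genes and on XBP1 itself, and the PERK arm works through translation control and ATF4. The counts are of RNA per gene, so they do not separate spliced from unspliced XBP1 mRNA and do not measure IRE1α activity.

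Promoter sequences of 3 members are shown first: HERPUD1 and XBP1, which rose and held a stress element, and SEL1L, which was not called with JG-98 and held none. ERN1 also rose and held none. ER stress elements are known to bind transcription factors of the unfolded protein response. RefSeq start sites (GRCh38.p14) were available for 8 of the 10 members, and the 250 bases before each start were searched on both strands for 4 motifs. These were the ER stress element ERSE (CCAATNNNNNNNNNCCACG), ERSE-II (ATTGGNCCACG), the core of the XBP1-binding UPRE (TGACGTG) and the ATF4-binding element CARE (TGATGCAA). Of 35116 promoters searched in the same way, 0.074% held ERSE, 0.0513% ERSE-II, 1.68% the UPRE core and 0.772% CARE. HERPUD1 held ERSE-II at bases 117 to 107 before its start and CARE, read on the opposite strand, at bases 176 to 169. XBP1 held ERSE at bases 52 to 34. The promoters of ERN1, SEL1L, SYVN1, EDEM1, EDEM2 and SELENOS held none of the 4. The HERPUD1 sequence is all 250 bases on the plus strand. The XBP1 sequence is the 222 bases before the first base of the gene in the count table, on the minus strand. Its RefSeq start, from which motif positions are counted, is base 28800569, inside the gene of the count table, so the ERSE lies nearer the end of the printed sequence than its position says. The table holds a second XBP1 start, at base 28800077, whose promoter held none of the 4. SEL1L is also on the minus strand. Capitals mark the matched letters, and no matched stretch overlaps another.
HERPUD1, chr16:56931892-56932141: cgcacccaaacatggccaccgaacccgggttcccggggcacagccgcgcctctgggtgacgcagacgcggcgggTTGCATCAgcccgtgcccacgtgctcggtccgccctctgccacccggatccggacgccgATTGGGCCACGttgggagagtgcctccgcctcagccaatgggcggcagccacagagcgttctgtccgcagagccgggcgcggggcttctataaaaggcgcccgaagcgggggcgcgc
XBP1, chr22:28800598-28800819: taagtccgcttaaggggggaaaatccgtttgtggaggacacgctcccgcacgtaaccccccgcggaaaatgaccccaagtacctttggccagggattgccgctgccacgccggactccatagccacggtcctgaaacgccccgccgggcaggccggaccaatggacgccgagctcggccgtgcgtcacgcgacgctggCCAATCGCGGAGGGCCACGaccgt
SEL1L, chr14:81533854-81534103: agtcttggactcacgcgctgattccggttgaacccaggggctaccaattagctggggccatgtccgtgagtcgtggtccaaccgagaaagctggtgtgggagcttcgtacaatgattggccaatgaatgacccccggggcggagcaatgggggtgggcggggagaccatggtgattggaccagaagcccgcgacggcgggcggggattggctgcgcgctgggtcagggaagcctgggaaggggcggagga

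ERSE and ERSE-II were also found before RefSeq starts of other genes that are compared with the members further on. Promoters were searched for 23 of 28 XBP1 target genes, 48 of 61 other ERAD genes and 12 of 12 ATF6 arm genes. The UPRE core, whose sites are not printed, was found for 5, 4 and 1 of these, beside 1.68% of all promoters. The sites of CANX, PDIA6, SERP1, CRELD2 and HSP90B1 lie inside the gene as the count table spans it. In these lines the fixed half-sites are in capitals and the free bases between them in lower case, each read on the strand that gives the motif. The first group is ERSE and the second, of 11 bases, is ERSE-II. A match is a description of the letters and was not tested as a site.
XBP1, chr22:28800603-28800621: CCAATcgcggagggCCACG
HSPA5, chr9:125241391-125241409: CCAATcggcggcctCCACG
HSP90B1, chr12:103930216-103930234: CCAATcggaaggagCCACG
HSP90B1, chr12:103930321-103930339: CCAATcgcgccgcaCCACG
CALR, chr19:12938384-12938402: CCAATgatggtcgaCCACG
CRELD2, chr22:49918554-49918572: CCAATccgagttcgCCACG
CANX, chr5:179698778-179698796: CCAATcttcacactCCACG
PDIA6, chr2:10812853-10812871: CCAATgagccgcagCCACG
SERP1, chr3:150546710-150546728: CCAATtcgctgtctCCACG
HERPUD1, chr16:56932025-56932035: ATTGGgCCACG
SDF2L1, chr22:21642114-21642124: ATTGGtCCACG
HYOU1, chr11:119057380-119057390: ATTGGaCCACG
HYOU1, chr11:119057274-119057284: ATTGGaCCACG

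Total counts lay between 55050996 and 56861971 in 7 libraries, and Empty JG-98 replicate 1 had 37341458. The 2 NeuT JG-98 libraries stood further apart than those of any other group: the chi-square per gene between replicates was 22.1 there and 4.52 to 8.20 in the other groups. The tested members had mean counts of 587 (ERN1) to 7377 (DERL1). Levels are given as CPM (counts over the library size, which TMM factors adjust) and changes as log2 fold changes from edgeR; a gene is said to have risen or fallen, or to be called, where the Benjamini-Hochberg adjusted p over all 17693 genes was under 0.05. An exact permutation test of 2 libraries against 2 cannot go below 0.333, so the gene tests rest on the spread shared across genes. The 7 markers of mammary epithelium summed to 17198 to 20709 CPM in every library, and leukocyte and endothelial markers to at most 0.526 and 17.5 CPM.

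JG-98 was followed by a rise of the branch's transcription factor, its sensor and 1 ERAD component. HERPUD1, XBP1 and ERN1 rose in NeuT cells, by 1.61-fold, 1.47-fold and 1.80-fold, and no member fell. The genes of the ubiquitin ligase complex, the mannosidase-like proteins, DERL1 and SELENOS were not called. The 3 of 9 compare with 2.01% of all tested genes called higher in NeuT and 1.01% called lower. In Empty cells 0 of 9 members passed in edgeR, where 0.260% of genes were called higher and 0.0791% lower; 2 members had an unadjusted p under 0.05, DESeq2 called the same number and limma-voom called 0. Averaged over both lines the same 3 members rose, with 2.39% of genes called higher and 1.58% lower. The median change of the 9 members was 0.03 on the log2 scale in NeuT and 0.06 in Empty, beside 0.0002 and -0.0033 over all tested genes.

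**Figure D1:**
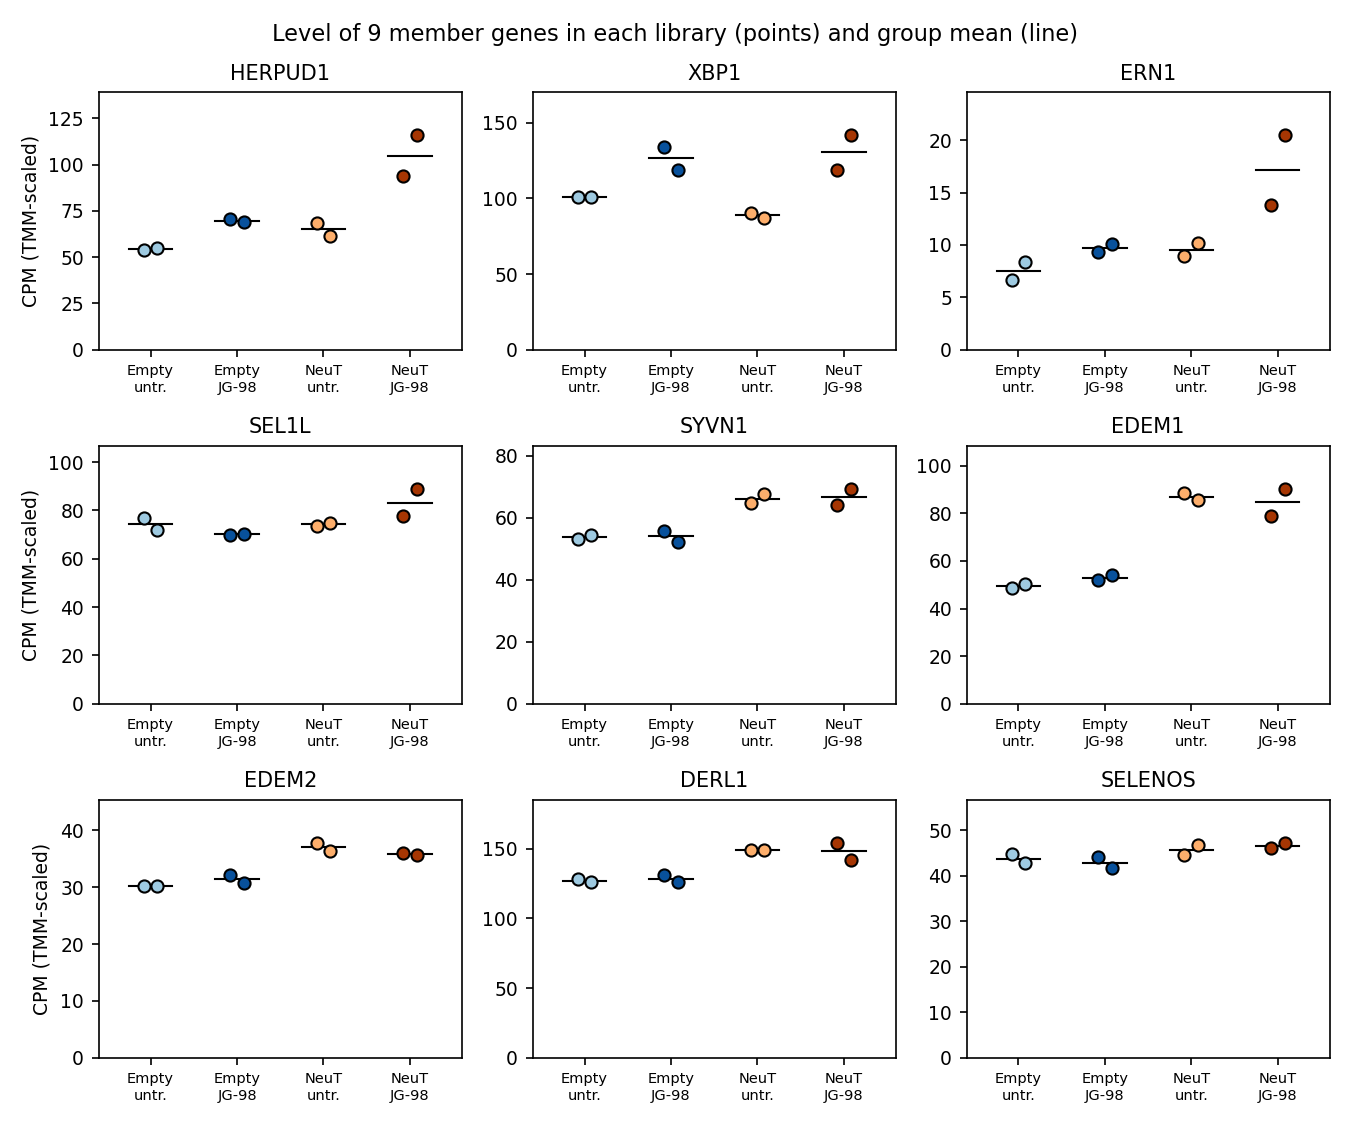
Level of the 9 tested members in each library, in CPM scaled by TMM factors (y axis, from 0), for Empty and NeuT cells without treatment (untr.) and with JG-98 (x axis); points are libraries and lines are group means. HERPUD1, XBP1 and ERN1 lie higher with JG-98 in both lines, and EDEM1 lies higher in NeuT than in Empty cells whatever the treatment.

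HERPUD1 (chromosome 16, 56932142 to 56944864, plus strand) encodes an ER-membrane protein with a ubiquitin-like domain that associates with the SYVN1 ligase complex. Its level was 53.7 and 54.8 CPM in untreated Empty cells and 70.5 and 68.8 CPM with JG-98. In NeuT cells it was 68.7 and 61.3 CPM untreated and 93.8 and 116 CPM treated. Treated libraries lay above untreated ones in both lines without overlap, and the treated NeuT libraries were the highest of the 8. The log2 fold change was 0.69 (SE 0.085, adjusted p 3.4e-04) in NeuT, 0.36 (SE 0.086, adjusted p 0.124) in Empty and 0.53 (SE 0.061, adjusted p 1.4e-04) averaged over the lines. The NeuT call held under every alternative that was run.

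XBP1 (chromosome 22, 28794555 to 28800597, minus strand) was at 101 and 101 CPM in untreated Empty libraries and at 134 and 119 CPM in treated ones. NeuT cells gave 90.3 and 87.3 CPM untreated and 119 and 142 CPM treated. As for HERPUD1, treated and untreated libraries did not overlap within either line. The change was 0.56 on the log2 scale (SE 0.075, adjusted p 5.2e-04) in NeuT, 0.32 (SE 0.075, adjusted p 0.110) in Empty and 0.44 (SE 0.053, adjusted p 1.5e-04) averaged. In Empty cells the calls of both genes depended on the model. Both were called with DESeq2 (adjusted p 0.0146 for HERPUD1 and 0.0161 for XBP1) and with no filter on low counts (8.1e-05 and 3.1e-04). A fit of only the 4 Empty libraries also called both (0.00255 and 0.00686). Both passed as well in the edgeR fit without NeuT JG-98 replicate 1 (3.3e-04 and 4.1e-04) or without replicate 2 (3.5e-04 and 4.5e-04), with log2 changes of 0.37 and 0.32 in each.

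ERN1 (chromosome 17, 64039142 to 64130819, minus strand) was the least abundant tested member. Its libraries stood at 6.66 and 8.40 CPM in untreated Empty cells, 9.34 and 10.1 CPM in treated Empty cells, 8.92 and 10.2 CPM in untreated NeuT cells and 13.8 and 20.5 CPM in treated NeuT cells. Treated libraries were again above untreated ones in each line. For their level, replicates spread more widely than for HERPUD1 and XBP1, except that XBP1 spread more in treated Empty cells. The log2 change was 0.85 (SE 0.17, adjusted p 0.0207) in NeuT and 0.38 (SE 0.18, adjusted p 0.526) in Empty. The NeuT change was 0.53 without NeuT JG-98 replicate 2 and 1.10 without replicate 1, and the Empty change was 0.22 without Empty untreated replicate 1 and 0.55 without replicate 2. The NeuT call was lost in a fit of only the 4 NeuT libraries (adjusted p 0.0604), without NeuT untreated replicate 1 (0.189) and without NeuT untreated replicate 2 (0.116). Averaged over the lines ERN1 rose by 0.61 (adjusted p 0.0173), a call that was lost without any single untreated NeuT library, any treated Empty library or Empty untreated replicate 1 (adjusted p 0.0511 to 0.0809).

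**Figure D2:**
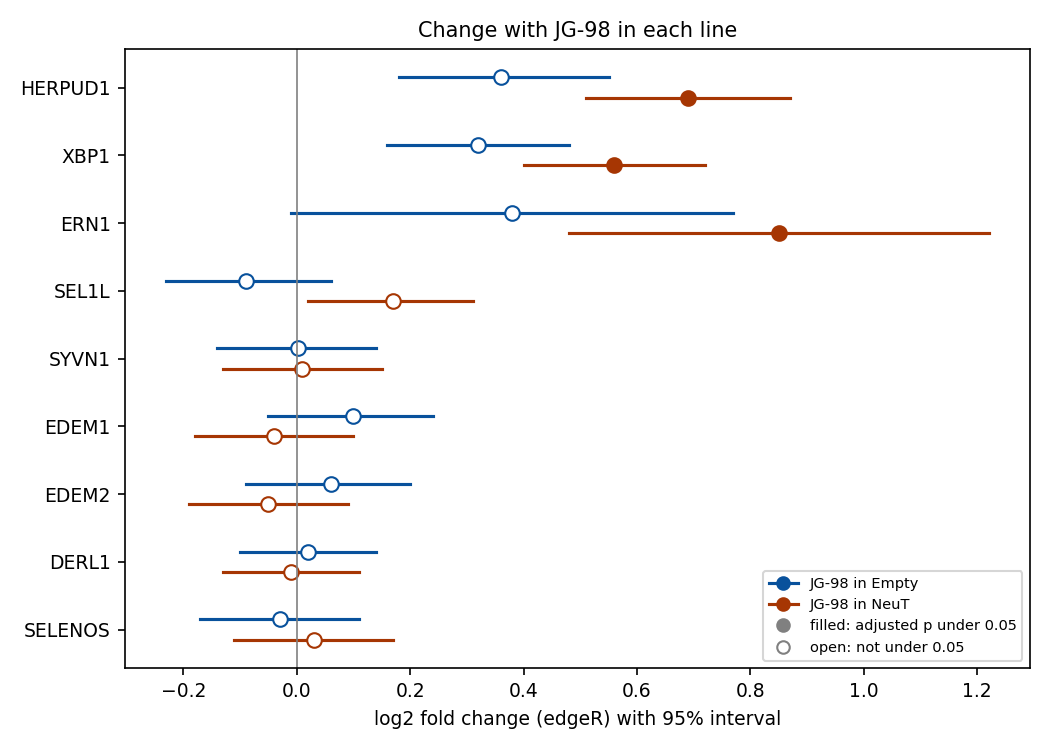
Log2 fold change with JG-98 (x axis) of each tested member (y axis) in Empty (blue) and NeuT cells (orange-brown), as edgeR estimates with 95% intervals; filled points have an adjusted p under 0.05. HERPUD1, XBP1 and ERN1 in NeuT are filled, while the intervals of SYVN1, EDEM1, EDEM2, DERL1 and SELENOS span 0 in both lines.

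SEL1L and SYVN1 form the core of the main ERAD ubiquitin ligase: SYVN1, also called HRD1, is the ligase and SEL1L its adaptor on the lumenal side. SYVN1 (chromosome 11, 65121780 to 65134533, minus strand) was at 53.3 and 54.4 CPM in untreated and 55.8 and 52.2 CPM in treated Empty cells. NeuT cells gave 64.8 and 67.6 CPM untreated and 64.0 and 69.3 CPM treated. Treated and untreated libraries overlapped in both lines. The log2 change with JG-98 was 0.0022 in Empty (95% interval -0.14 to 0.14) and 0.01 in NeuT (-0.13 to 0.15). Of the exonic bases of SYVN1, 10.0% are shared with neighbouring genes such as FAU and MRPL49.

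SEL1L (chromosome 14, 81471547 to 81533853, minus strand) differed in pattern from its partner. Untreated Empty libraries had 76.8 and 72.1 CPM and treated ones 69.8 and 70.4 CPM, so the treated ones were the lower. Untreated NeuT libraries had 73.4 and 75.0 CPM and treated ones 77.6 and 88.9 CPM, so the treated ones were the higher. Neither difference was called: the log2 change was -0.09 (95% interval -0.23 to 0.06, adjusted p 0.735) in Empty and 0.17 (0.02 to 0.31, adjusted p 0.235) in NeuT. The NeuT value turned on 1 library. Without NeuT JG-98 replicate 1 the change was 0.26 and was called (adjusted p 0.00612), and without replicate 2 it was 0.06 (adjusted p 0.817).

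EDEM1 and EDEM2 encode mannosidase-like ER proteins that trim or recognise the glycans of misfolded proteins. With JG-98 the log2 change of EDEM1 (chromosome 3, 5187646 to 5219958, plus strand) was 0.10 in Empty (95% interval -0.05 to 0.24) and -0.04 in NeuT (-0.18 to 0.10). For EDEM2 (chromosome 20, 35115364 to 35147336, minus strand) it was 0.06 in Empty (-0.09 to 0.20) and -0.05 in NeuT (-0.19 to 0.09). Treated libraries lay above untreated ones for both genes in Empty and below them for EDEM2 in NeuT, and EDEM1 overlapped in NeuT; neither gene was called in either line. An unnamed antisense gene with a mean count of 0 covers 9.4% of the exonic bases of EDEM1.

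DERL1 belongs to the derlins, membrane proteins through which substrates leave the ER. Its level (chromosome 8, 123013170 to 123042302, minus strand) was 128 and 126 CPM in untreated Empty cells, 131 and 126 CPM in treated Empty cells, 149 and 149 CPM in untreated NeuT cells and 154 and 142 CPM in treated NeuT cells. The groups overlapped within each line, and the log2 change with JG-98 was 0.02 in Empty (95% interval -0.10 to 0.14) and -0.01 in NeuT (-0.13 to 0.11). SELENOS (chromosome 15, 101270817 to 101277500, minus strand), a selenoprotein of the ER membrane that helps bring p97 to the ligase complex, ranged from 41.6 to 47.2 CPM over all 8 libraries. Treated and untreated libraries overlapped in both lines. Its change was -0.03 in Empty (-0.17 to 0.11) and 0.03 in NeuT (-0.11 to 0.17).

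DERL3 (chromosome 22, 23834503 to 23839128, minus strand), a derlin paralog known from secretory cells, was listed at 0 in all 8 libraries. A count of 0 allows up to 3 counts, which is 0.0511 to 0.0787 CPM depending on the library. The value cannot be read as absence. Of its exonic bases, 77.0% are shared with SMARCB1 on the opposite strand, and 7 of the 15 genes within 100 kb were also at 0 in every library, among them MIF, a widely expressed gene. How reads in this window were assigned was not tested. No call or fold is given for DERL3.

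The difference between the lines in their response to JG-98, tested as an interaction in edgeR, was not called for any member. The interaction was 0.33 on the log2 scale for HERPUD1 (SE 0.12, adjusted p 0.556), 0.24 for XBP1 (SE 0.11, adjusted p 0.615), 0.47 for ERN1 (SE 0.25, adjusted p 0.680) and 0.25 for SEL1L (SE 0.096, adjusted p 0.561). Over all genes 0.00565% were called higher and 0% lower in this test, and 3 members had an unadjusted p under 0.05 (HERPUD1, XBP1 and SEL1L). DESeq2 and limma-voom called 0 members. The result rested on 1 library: NeuT JG-98 replicate 2 lay above replicate 1 for all 4 of these genes, and without replicate 1 all 4 were called (adjusted p 0.00261 for HERPUD1, 0.0128 for XBP1, 0.0165 for ERN1 and 0.0148 for SEL1L), with interactions of 0.47, 0.35, 0.72 and 0.34. Calls over all genes rose in the same fit, to 480 higher and 297 lower of 18667 genes tested. Without replicate 2 the number called was 0, and the interactions of these genes were 0.16, 0.09, 0.15 and 0.14. The rise in NeuT is therefore not shown to exceed that in Empty cells.

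DDIT3 and ATF4, genes of the PERK arm and of the wider integrated stress response, gave the setting in the same libraries. DDIT3, the CHOP transcription factor, was at 1.80 and 1.79 CPM in untreated and 4.62 and 4.42 CPM in treated Empty cells. It was at 2.32 and 2.17 CPM in untreated and 11.4 and 15.8 CPM in treated NeuT cells. The log2 changes of DDIT3 were 1.33 and 2.60 in Empty and NeuT and those of ATF4 were 0.51 and 1.34, all called. Of the exonic bases of DDIT3, 39.6% are shared with neighbours, mainly MARS1. EIF2AK3, which encodes PERK itself, was not called in either line (-0.09 and 0.16). Treated NeuT replicate 2 was again above replicate 1 for DDIT3, and for ATF4 with 310.5 against 249 CPM. ATF4 reached 356 CPM over the 8 libraries, so, unlike for DDIT3, its highest library was an Empty one.

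Ratios between members within a library do not depend on how libraries are scaled, and they compare RNA levels only. Per kb of exon, HERPUD1 stood to SYVN1 at 1.09 and 1.09 in untreated Empty libraries and at 1.37 and 1.43 in treated ones. In NeuT the ratio was 1.15 and 0.984 untreated and 1.59 and 1.81 treated. Treated libraries were above untreated ones in both lines. SEL1L stood to SYVN1 at 0.829 and 0.762 in untreated and 0.720 and 0.776 in treated Empty libraries, which overlapped, and at 0.652 and 0.638 in untreated and 0.697 and 0.738 in treated NeuT libraries, which did not. EDEM1 stood to EDEM2 at 0.451 to 0.493 in the Empty libraries and at 0.613 to 0.707 in the NeuT libraries. That ratio separated the lines and not the treatments.

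**Figure D3:**
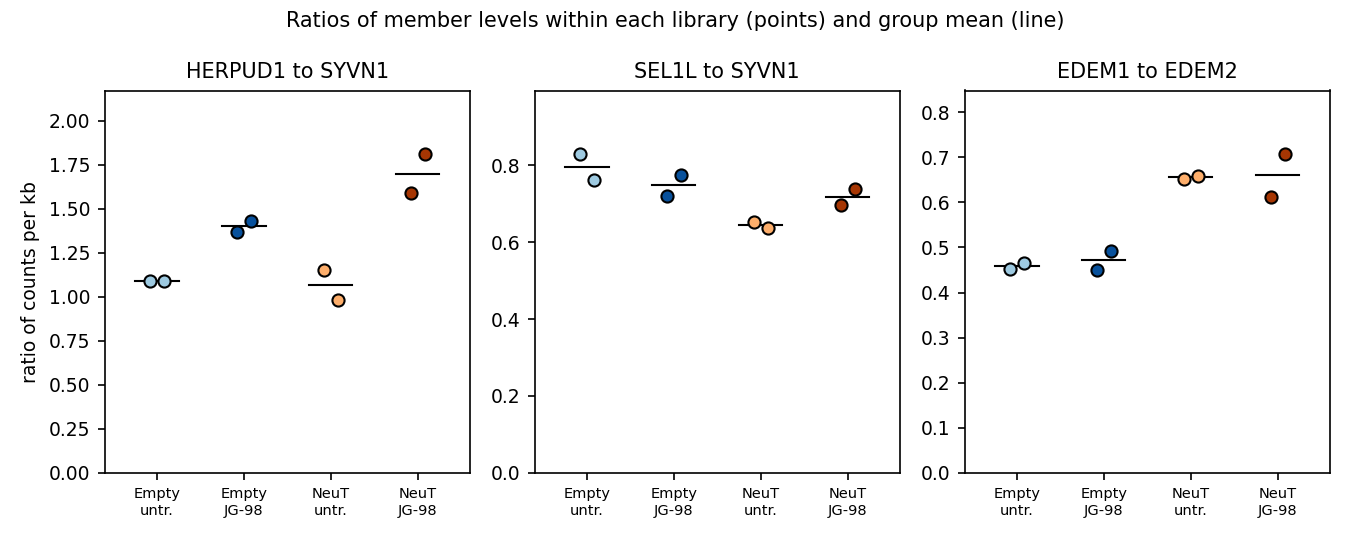
Ratio of counts per kb of exon between 2 members within each library (y axis, from 0) for 3 pairs, by group (x axis); points are libraries and lines group means. The HERPUD1 to SYVN1 ratio is higher with JG-98 in both lines, from 1.09 to 1.37 and 1.43 in Empty, and the EDEM1 to EDEM2 ratio is higher in NeuT libraries.

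Compared per kb of exon, the members spanned a wide range of levels. In untreated Empty cells XBP1 was at 33.4 ± 0.095 CPM per kb (SD, n = 2), followed by DERL1 at 18.3 ± 0.29, EDEM2 at 16.0 ± 0.024, SELENOS at 11.6 ± 0.39, HERPUD1 at 10.7 ± 0.16, SYVN1 at 9.80 ± 0.15, SEL1L at 7.79 ± 0.35, EDEM1 at 7.36 ± 0.17 and ERN1 at 0.693 ± 0.11. SEL1L and EDEM1 were within their combined spread of each other. In treated NeuT cells the order was XBP1 at 43.2 ± 5.3 CPM per kb, DERL1 at 21.3 ± 1.2, HERPUD1 at 20.7 ± 3.1, EDEM2 at 19.0 ± 0.12, EDEM1 at 12.6 ± 1.2, SELENOS at 12.4 ± 0.23, SYVN1 at 12.1 ± 0.68, SEL1L at 8.71 ± 0.84 and ERN1 at 1.58 ± 0.43. There, HERPUD1 did not differ beyond the spread from its neighbours DERL1 and EDEM2, nor did EDEM1, SELENOS and SYVN1 from each other. These levels assume that every annotated exon is used.

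More of the ERAD machinery was read from a list of 61 further genes, all tested. Some were hardly counted: RNF5, FBXO6, BAG6 and GET4 had mean counts of 9.38, 35.4, 60.0 and 147. Of the exonic bases of GET4, 80.8% are shared with other genes. How reads of these genes were assigned was not tested. In Empty cells edgeR called 0 of the 61 (5 at an unadjusted p under 0.05, and 0 by DESeq2 and limma-voom), beside 0.260% of all genes called higher and 0.0791% lower. In NeuT cells, with 2.01% of all genes called higher and 1.01% lower, 0 were called higher and 1 lower, FOXRED2, an ER flavoprotein linked to ERAD, which went from 32.3 and 31.0 to 26.5 and 23.7 CPM (log2 change -0.33, adjusted p 0.0185). That call was lost without either untreated NeuT library (adjusted p 0.199 and 0.117), without NeuT JG-98 replicate 2 (0.0845) and in a fit of only the 4 NeuT libraries (0.111), and the list had 11 calls without NeuT JG-98 replicate 1. In that last fit 1171 of 18667 genes were called higher and 962 lower, against 355 and 178 of 17693 with all libraries. Averaged over the lines FOXRED2 fell by 0.27 (adjusted p 0.00585), a call that was lost without Empty untreated replicate 2 (0.0540) or NeuT untreated replicate 1 (0.0563). The list's median change in NeuT was -0.0029, beside 0.0002 for all genes.

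Among 28 genes known as XBP1 targets, 2 rose in NeuT cells and 0 fell. GFPT1, the first enzyme of the hexosamine pathway that supplies sugars for glycosylation, went from 97.9 and 97.7 to 132 and 159 CPM (log2 change 0.57, adjusted p 2.5e-04). DNAJB9, an ER co-chaperone that acts on HSPA5, went from 15.4 and 13.6 to 19.4 and 20.0 CPM (0.44, adjusted p 0.0311), and its call was lost without any single untreated library or NeuT JG-98 replicate 2 (0.0614 to 0.406) and in a fit of only the 4 NeuT libraries (0.0656). The call of GFPT1 held under every alternative run, and 6 targets were called without NeuT JG-98 replicate 1, where calls over all genes rose as given above. In Empty cells 0 of the 28 passed in edgeR (3 at an unadjusted p under 0.05, and 0 by DESeq2 and limma-voom). The translocon and signal sequence genes of the list (17, among them SEC61A1, SSR1 and SPCS1) gave no call in either line, and the median log2 change of the 28 in NeuT was -0.06, beside 0.0002 over all tested genes, of which 2.01% were called higher and 1.01% lower. The 16 genes of the IRE1 arm cover the XBP1 mRNA ligase and mRNAs known to be cut by IRE1α. Of the 16, 14 were tested and edgeR called 0 in either line (2 and 1 at an unadjusted p under 0.05 in Empty and NeuT, and 0 by the other tools). Among the mRNAs known to be cut, SPARC, PMP22 and PDGFRB had mean counts of 6.25, 23.0 and 28.5, and COL6A1 was not tested. SCARA3, BLOC1S1 and HGSNAT had more, at 102, 424 and 7822. Cutting by IRE1α was not tested.

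Among ER chaperones and other genes of the ATF6 arm, the few that were called with JG-98 fell. Of 12 such genes, 11 were tested, and in NeuT cells 3 fell and 0 rose, while the other 8 were not called; over all tested genes 1.01% were called lower. PDIA4, a disulfide isomerase, went from 259.7 and 247 to 211 and 214 CPM (log2 change -0.25, adjusted p 0.0125). CALR, the lectin chaperone calreticulin, went from 1003 and 972 to 854 and 833 CPM (-0.23, adjusted p 0.0203). HSP90B1, the ER paralog of HSP90, went from 566 and 558 to 482 and 492 CPM (-0.21, adjusted p 0.0474). Treated and untreated NeuT libraries did not overlap for any of the 3, but all 3 calls were lost without either untreated NeuT library (adjusted p 0.0750 to 0.316) and in a fit of only the 4 NeuT libraries (0.0940 to 0.144). CALR and HSP90B1 were also lost without either untreated Empty library (0.0525 to 0.109). The call of HSP90B1 was lost as well in edgeR without robust estimation (adjusted p 0.0510). In Empty cells, where 0.0791% of all genes were called lower, 0 of the 11 passed in edgeR (4 at an unadjusted p under 0.05, and 0 by DESeq2 and limma-voom). Averaged over the lines, where 1.58% of all genes were called lower, 5 fell: HSP90B1 (-0.14, adjusted p 0.0438), PDIA4 (-0.19, 0.00631), CALR (-0.14, 0.0297), CRELD2 (-0.20, 0.0167) and SDF2L1 (-0.23, 0.0134). This count was 0 without Empty untreated replicate 1, 1 without Empty untreated replicate 2 or either untreated NeuT library, and 2 without either treated Empty library. The list's median change in NeuT was -0.20.

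**Figure D4:**
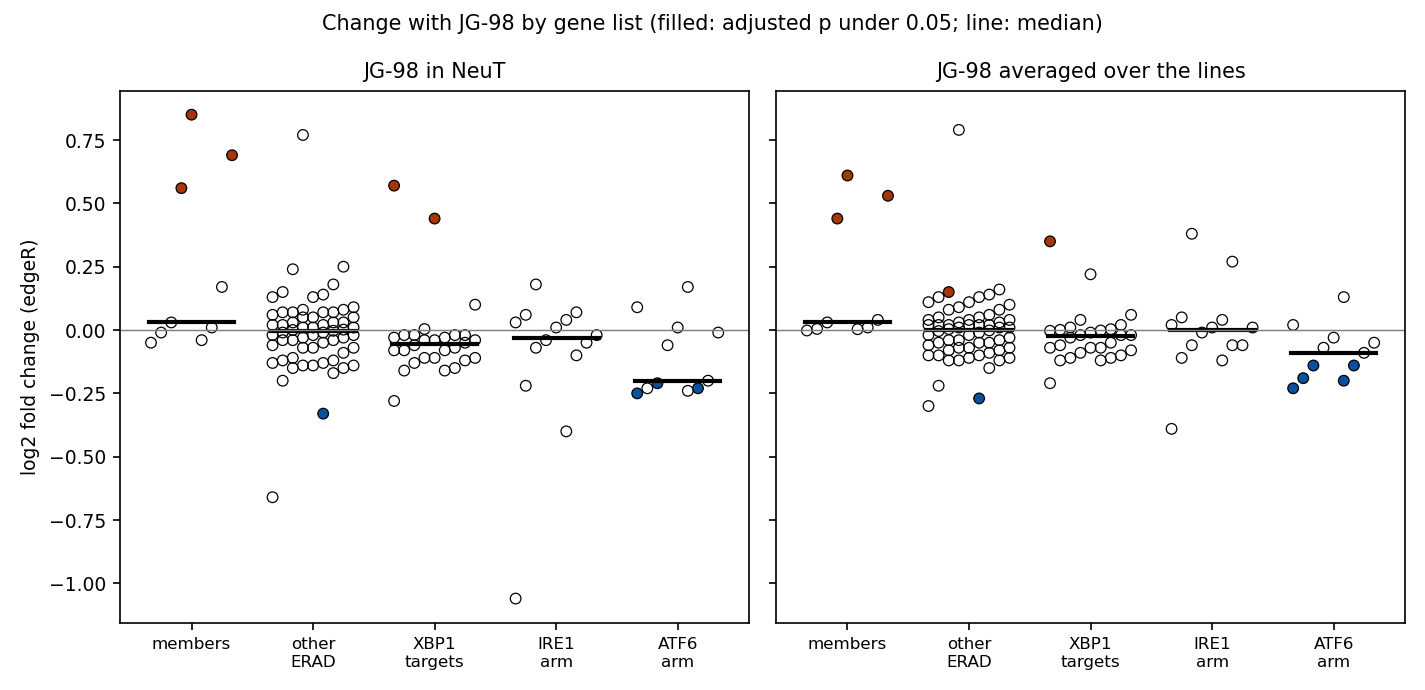
Log2 fold change with JG-98 (y axis) of every tested gene of 5 lists (x axis) in NeuT cells (left) and averaged over the lines (right); filled points have an edgeR adjusted p under 0.05 and black lines are list medians. The 3 called members rose, while the called genes of the ATF6 arm fell.

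Called genes with the stress elements printed above included both rises and falls. Averaged over the lines XBP1 and HERPUD1 rose by 0.44 and 0.53, whereas HSP90B1, CALR and CRELD2, which hold ERSE, and SDF2L1, which holds ERSE-II, fell. HSPA5, the ER HSP70 chaperone whose promoter is the textbook case of ERSE, was at 843 and 791 CPM in untreated and 776 and 719 CPM in treated Empty cells. In NeuT cells it was at 743 and 745 CPM untreated and 703 and 773 CPM treated. Its averaged change of -0.07 (95% interval -0.16 to 0.02, adjusted p 0.429) was not called, nor was that of HYOU1 (-0.05, adjusted p 0.669). CANX, PDIA6 and SERP1, which hold ERSE as well, were not called either (-0.05, -0.05 and -0.03). Among the members and the other ERAD, XBP1 target and ATF6 arm genes searched, the CARE letters were found before HERPUD1 alone.

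The lines themselves differed in most members. Without treatment 5 of 9 members were higher in NeuT than in Empty cells and 0 were lower, where 21.2% of all tested genes were called higher and 20.8% lower. Among the 5 called, EDEM1 differed most, by 1.75-fold, followed by SYVN1 and EDEM2 at 1.23-fold, HERPUD1 at 1.20-fold and DERL1 at 1.17-fold. Under JG-98 7 of 9 were higher and 0 lower, with 21.7% of all genes called higher and 20.0% lower; ERN1 and SEL1L joined the 5. The members' median difference was 0.26 on the log2 scale untreated and 0.25 under JG-98, beside -0.02 and -0.0011 over all tested genes.

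EDEM1 was at 48.8 and 50.4 CPM in untreated and 51.9 and 54.1 CPM in treated Empty cells. In NeuT cells it was at 88.3 and 85.5 CPM untreated and 78.9 and 90.2 CPM treated. All 4 NeuT libraries lay above all 4 Empty libraries. The log2 difference was 0.81 (SE 0.068, adjusted p 5.0e-08) untreated and 0.67 (SE 0.069, adjusted p 4.9e-07) under JG-98. EDEM2, at 30.2 and 30.2 CPM in untreated and 32.2 and 30.7 CPM in treated Empty cells, was at 37.8 and 36.3 CPM in untreated and 36.0 and 35.7 CPM in treated NeuT cells. Its difference was 0.30 (adjusted p 0.00204) untreated and 0.19 (adjusted p 0.0338) under JG-98, and the second was lost in most other settings (adjusted p up to 0.194).

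SYVN1 was higher in NeuT by 0.30 untreated (adjusted p 0.00130) and by 0.31 under JG-98 (adjusted p 0.00109), and all 4 NeuT libraries lay above all 4 Empty ones. SEL1L, its partner, differed by -0.0050 untreated (95% interval -0.15 to 0.14) and was higher by 0.25 under JG-98 (adjusted p 0.00737), a call lost without NeuT JG-98 replicate 2 (0.0748). DERL1 was higher by 0.23 untreated (adjusted p 0.00315) and by 0.20 under JG-98 (adjusted p 0.00774). The untreated call of DERL1 was lost without Empty untreated replicate 2 and the one under JG-98 without Empty JG-98 replicate 2 (0.0590) and in a fit of only the 4 treated libraries (0.0505).

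HERPUD1 was higher in NeuT by 0.26 untreated (adjusted p 0.0236) and by 0.59 under JG-98 (adjusted p 4.5e-05). The untreated call was lost without NeuT untreated replicate 1 (adjusted p 0.206), without Empty untreated replicate 1 (0.119) and without replicate 2 (0.0854). XBP1 was lower in both untreated NeuT libraries than in the Empty ones but was not called (-0.19, adjusted p 0.0561), and under JG-98 the lines overlapped (0.05, adjusted p 0.653; without NeuT JG-98 replicate 1, 0.18 and 0.0264). Without either treated NeuT library the untreated difference of XBP1 was called lower (-0.17, adjusted p 0.00817 and 0.00828), as it was in a fit of only the 4 untreated libraries (-0.18, 7.1e-04) and with no filter on low counts (-0.19, 0.0166). ERN1 differed by 0.34 untreated (adjusted p 0.147) and was higher in NeuT by 0.81 under JG-98 (adjusted p 0.00221; 0.50 to 1.08 over the alternatives). The untreated difference of ERN1 was called with the replicate number as a block (0.0238), with no filter on low counts (0.0125), in a fit of only the 4 untreated libraries (0.0198) and without either treated NeuT library (0.0133 and 0.0148). SELENOS was not called in either state (0.06 and 0.12).

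**Figure D5:**
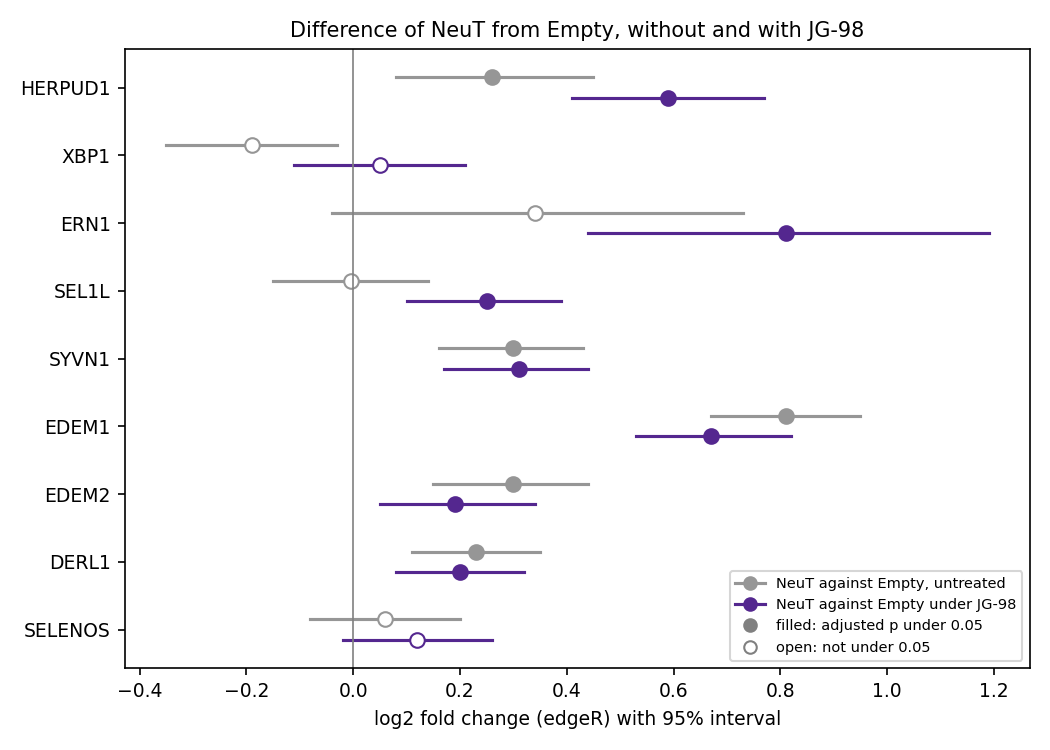
Log2 difference of NeuT from Empty cells (x axis) for each tested member (y axis), untreated (grey) and under JG-98 (purple), as edgeR estimates with 95% intervals; filled points have an adjusted p under 0.05. EDEM1 lies furthest to the right without treatment, at 0.81, and XBP1 is the member whose untreated estimate is furthest below 0, at -0.19.

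The line differences depended in part on how libraries were scaled. When libraries were scaled by total counts and not by TMM factors, the share of higher calls fell from 50.5% to 40.7% untreated and from 52.0% to 41.0% under JG-98, and the median of all genes went to -0.08 in both. Under that scaling the differences of HERPUD1 untreated (0.19, adjusted p 0.0718), EDEM2 under JG-98 (0.12, 0.194) and DERL1 under JG-98 (0.13, 0.0817) were not called, and XBP1 untreated was called lower (-0.26, 0.00797). Fibroblast markers summed to 7.96 to 9.29 CPM in Empty and 67.5 to 82.4 CPM in NeuT libraries. Of the 5 markers 3 had more than 3 counts on average; DCN carried nearly all of the difference, at 2.47 to 3.58 CPM in Empty and 62.4 to 77.5 CPM in NeuT, while COL1A1 was at 4.70 to 5.83 CPM throughout and LUM at 0 to 0.0557 CPM. The summed mammary epithelial markers also separated the lines, at 17198 to 17888 CPM in Empty and 20108 to 20709 CPM in NeuT. So did the summed endothelial markers, at 12.3 to 17.5 and 9.29 to 11.1 CPM. These sums are carried by the most abundant genes, and single genes may differ from them. The part of the marker differences in the members' differences was not tested. In bulk RNA, fewer cells of a type and less RNA per cell cannot be told apart.

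Of the 61 other ERAD genes, 14 were higher and 12 lower in untreated NeuT cells, and 15 and 12 under JG-98. These shares were near those of all tested genes, of which 21.2% were called higher and 20.8% lower untreated and 21.7% and 20.0% under JG-98. FBXO2, a glycoprotein-binding subunit of a cytosolic ubiquitin ligase, went from 11.0 and 10.5 CPM in Empty to 20.3 and 20.6 CPM in NeuT without treatment (log2 difference 0.93, adjusted p 2.0e-07). DERL2, a further derlin, was higher by 0.43 (adjusted p 2.5e-04) and the membrane ligase RNF170 by 0.42 (9.8e-05). SVIP, a small inhibitor of ERAD that binds p97, was lower, at 23.7 and 24.0 CPM in NeuT against 36.9 and 36.8 CPM in Empty (-0.63, adjusted p 1.8e-06). YOD1, a p97-associated deubiquitinase, and FOXRED2 were lower by the same amount (-0.67, adjusted p 1.7e-05 and 9.5e-07). Under JG-98 FBXO2 (0.81), RNF170 (0.41) and ATXN3 (0.30), a deubiquitinase, were higher, and FOXRED2 (-0.80), SVIP (-0.74) and YOD1 (-0.43) lower. ATXN3 was not called without Empty JG-98 replicate 2 (0.193) or with total counts (0.0624). The untreated count of 26 was 15 to 17 without any 1 of the 4 untreated libraries, where calls over all genes fell too, from 3748 higher and 3675 lower to 2784 to 3051 higher and 2525 to 2677 lower.

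Counts between the lines in the other lists stand beside 21.2% of all tested genes called higher and 20.8% lower untreated, and 21.7% and 20.0% under JG-98. Of the 28 XBP1 targets 10 were higher and 4 lower in untreated NeuT cells, and 10 and 5 under JG-98. The genes with the greatest rises were of vesicle traffic between ER and Golgi: KDELR3 by 0.73, ARFGAP3 by 0.51 and SEC24D by 0.41, with PDIA6 (-0.34), DNAJB11 (-0.32) and SSR2 (-0.18) lower. Under JG-98 the naming rule gave KDELR3 at 0.59, ARFGAP3 at 0.44, SEC24D at 0.44, PDIA6 at -0.33, DNAJB11 at -0.32 and SSR2 at -0.30. The untreated call of SSR2 was lost without Empty untreated replicate 1 or either untreated NeuT library (adjusted p 0.137 to 0.277), where the list had 8 calls without Empty untreated replicate 1 and 9 without NeuT untreated replicate 1. In the IRE1 arm 2 were higher and 4 lower untreated, with HGSNAT at 0.48, BLOC1S1 at 0.32, SCARA3 at -1.29, FAM98B, a subunit of the XBP1 mRNA ligase complex, at -0.49 and the kinase MAP3K5 at -0.35. BLOC1S1 lost its call without any of the 4 untreated libraries (0.0638 to 0.215) and with DESeq2 (0.0641). With JG-98 1 was higher and 3 lower: HGSNAT at 0.52, SCARA3 at -1.32, FAM98B at -0.39 and TRAF2, an adaptor that binds IRE1α, at -0.35. In the ATF6 arm 2 of 11 were higher and 6 lower in both states. The higher ones were ATF6 itself (0.17 untreated, 0.25 under JG-98) and its protease MBTPS1 (0.15 and 0.29), and the lower ones included HSP90B1 (-0.66 and -0.78) and CRELD2 (-0.32 and -0.39), with HYOU1 at -0.22 untreated and CALR at -0.34 under JG-98. Untreated, the calls of ATF6, MBTPS1 and HYOU1 were lost without any 1 of the 4 untreated libraries (0.0580 to 0.182), and 2 or 3 genes of the arm then passed. With total counts ATF6 (0.159), MBTPS1 (0.274) and BLOC1S1 (0.0990) lost their untreated calls, as did MBTPS1 with no filter on low counts (0.0552). TRAF2 under JG-98 lost its call without Empty JG-98 replicate 2 (0.0548).

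The authors' deposited table for each line gave the same picture for the members. In it the log2 fold change with JG-98 in NeuT was 0.68 for HERPUD1, 0.55 for XBP1 and 0.82 for ERN1, with adjusted p of 5.8e-04, 0.00148 and 0.0135. For Empty cells the authors' deposited table gave 0.38, 0.33 and 0.42, with adjusted p of 0.127, 0.127 and 0.448.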

How the data were processed

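RNA was selected by poly(A), per the labels' protocols, and sequenced from 8 libraries, grouped by sample title. Raw counts for every gene and library were deposited as 1 table. Trim Galore 0.5.0, FastQC 0.11.7, HISAT2 2.1.0, SAMtools 1.9, featureCounts 1.6.3 and limma are named with build hg38 (GRCh38), per the submitters' processing notes; the annotation release and the use of strand in counting are not given in the sources used here. Without strand, reads from genes that overlap on opposite strands cannot be told apart. The authors also deposited 1 comparison table per line, whose columns hold log2 changes, log2 expression, p-values and test scores, per the file headers. Coordinates of genes are those of the count table.

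Counts were analysed with edgeR 4.0.16 in R 4.3.3: filterByExpr (minimum count 10, total 15), TMM factors, 1 robust quasi-likelihood fit of all 8 libraries with a coefficient per group, and Benjamini-Hochberg adjustment over the 17693 genes tested. Intervals are 95%. A count of 0 was taken to allow 3 counts. Reads carry no molecular identifiers and may be PCR copies, so this limit covers counting error and nothing else. The script was tested on simulated data. Total counts were 37341458 to 56861971 per library. Replicates differed by more than sampling noise, and each library counted as 1 replicate. Symbols came from a gene name table that matched 60261 of 60617 identifiers.

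The members and lists were chosen with earlier results of these data known. All tested members were followed in every comparison, but not every value of a member that was not called is printed. From each other list up to 3 called rises and 3 called falls were named, those with the greatest change, a mean of at least 50 counts and no overlap between the libraries compared; other genes named were chosen after their values were seen. A result that the rule would name is not reported here. Alternatives were RLE factors, total counts, other filters on low counts, DESeq2 1.42.0, limma-voom (limma 3.58.1), edgeR without robust estimation, a fit of only the libraries compared, the replicate number as a block and leaving out each library. Promoter sequences are those of RefSeq (GRCh38.p14).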

Additional observations from a re-analysis of the deposited data

How the results depend on the processing

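The rises of HERPUD1 and XBP1 with JG-98 in NeuT and averaged over the lines, and the differences of EDEM1 and SYVN1 between the lines, kept direction and call under every alternative run. Changes in direction were of member changes that were not called. For SEL1L, untreated lines, the difference was 0.0034 with RLE factors, 0.01 with at least 10 counts in every library, 0.0034 with DESeq2 and 3.6e-05 with only the libraries compared. With total counts SELENOS was at -0.01 between untreated lines and XBP1 at -0.03 under JG-98. SYVN1 in Empty was at -0.0045 with no filter on low counts and -0.0016 with limma-voom. The cause was not tested.

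Counts of calls moved by over 1.5 times under the settings below. With no filter on low counts 2 members were called with JG-98 in Empty, 3 other ERAD and 5 ATF6 arm genes in NeuT, 1 XBP1 target in the interaction, and 5 other ERAD genes and 3 XBP1 targets averaged. DESeq2 called 2 members in Empty and 2 other ERAD and 6 ATF6 arm genes in NeuT. With only the libraries compared 2 members were called in Empty, and 0 other ERAD genes, 1 XBP1 target and 0 ATF6 arm genes in NeuT. Between the lines under JG-98, total counts gave 7 IRE1 arm genes, where 3106 genes were called higher and 4465 lower of 17693. Over all genes, calls higher and lower with JG-98 in NeuT were 355 and 178 of 17693 in the reported fit, 632 and 368 of 31967 with no filter, 420 and 302 of 13233 with DESeq2 and 153 and 32 of 16682 with only the libraries compared. In Empty they were 46 and 14, 162 and 120 of 31967, 95 and 56 of 11175, and 140 and 65 of 16813. With no filter they were 114 and 24 in the interaction and 633 and 509 averaged, of 31967.

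Leaving out 1 library at a time, where a lone library is assumed to vary like the other groups, gave these ranges of log2 changes with JG-98. In Empty they were -0.04 to 0.05 for SYVN1, -0.07 to 0.01 for SELENOS and -0.01 to 0.04 for DERL1. In NeuT they were -0.06 to 0.06 for SYVN1, -0.01 to 0.06 for SELENOS, -0.15 to 0.05 for EDEM1 and -0.07 to 0.04 for DERL1. Averaged, they were -0.02 to 0.04 for SYVN1, -0.02 to 0.02 for SELENOS, -0.02 to 0.03 for DERL1, -0.01 to 0.02 for EDEM2, -0.01 to 0.09 for SEL1L and -0.02 to 0.08 for EDEM1. The interaction ran from -0.06 to 0.06 for SYVN1 and -0.09 to 0.01 for DERL1. Between the lines, SEL1L untreated ran from -0.05 to 0.04 and XBP1 under JG-98 from -0.08 to 0.18.

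Numbers of called genes over the same omissions were, with JG-98 in NeuT, 2 to 4 members, 0 to 11 other ERAD genes, 1 to 6 XBP1 targets and 0 to 7 ATF6 arm genes, and in Empty 0 to 2 members. Averaged, they were 0 to 8 other ERAD genes, 1 to 4 XBP1 targets, 0 to 2 IRE1 arm genes and 0 to 7 ATF6 arm genes. The interaction gave 0 to 4 members, 0 to 1 XBP1 targets and 0 to 2 ATF6 arm genes. Between untreated lines they were 3 to 7 members, 15 to 32 other ERAD genes, 8 to 15 XBP1 targets and 2 to 9 ATF6 arm genes. The upper ends were reached without a NeuT JG-98 library. Calls over all genes moved with them: for JG-98 in NeuT they were lowest without NeuT untreated replicate 1 (102 higher and 30 lower) and highest without NeuT JG-98 replicate 1 (1171 and 962).

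The reported fit did not pair same-numbered replicates. The correlations of their deviations were 0.0640, -0.101, -0.00906 and 0.244 in the 4 pairs of groups, the last between the treated groups. Such correlations cannot show whether the cultures were paired. With the replicate number as a block 3 members were called with JG-98 in NeuT, 0 in Empty, 6 between untreated lines and 7 under JG-98, beside 384, 48, 3800 and 3861 genes of 17693 called higher. With the numbers crossed in NeuT, an alternative chosen after seeing the data, 3 members and 2 ATF6 arm genes were called. Over all genes 321 were then called higher and 133 lower of 17693. At 37341458 to 56861971 counts per library, the least abundant tested member, ERN1, had 356 to 1108 counts. Which part of its error is depth was not tested, and 2 libraries per group limit every comparison.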
